A study of Mus musculus with 4 samples.

Results

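Circadian clock genes were followed in whole inguinal mammary gland of mice at postnatal day 10. The members were 10 genes chosen by name: the repressors Per1, Per2, Per3, Cry1, Nr1d1, Nr1d2 and Bhlhe40, the activator Arntl, also called Bmal1, and the output factors Dbp and Tef. Every probe set whose annotation named exactly 1 of these genes was taken, which gave 17 of 28898 named probe sets and 9 of 17097 genes. No probe set in the annotation carried the name Nr1d1, so that gene was not analysed here. The knockout mice were Mt2-mmp(-/-) in all tissues, and the wild-type mice were their Mt2-mmp(+/+) littermates. Mt2-mmp, or Mmp15, encodes a matrix metalloproteinase held in the cell membrane, and the part of it that was deleted was not given. Both genotypes were congenic on C57Bl/6J, and each was measured on 2 Affymetrix arrays described as biological replicates. The sources used here do not say how many mice went into an array or at which hour the tissue was taken.

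The mammalian clock is a feedback loop of transcription that runs in nearly every cell, fat, skin, muscle and mammary epithelium included. The positive limb, Arntl with Clock or its relative Npas2, binds E-boxes and switches on Per and Cry genes, whose proteins return to the nucleus and block it. A second loop lets Nr1d1 and Nr1d2 repress Arntl at ROR elements, where ROR factors activate it, and the PAR bZIP factors Dbp, Tef and Hlf pass the rhythm on through D-boxes, against the repressor Nfil3. In adult tissues the transcripts of Dbp, Nr1d1, Nr1d2 and the Per genes peak away from that of Arntl, so the balance of the limbs shifts with the hour.

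The promoter windows of the members are given here to show where these elements lie. Whether they bear on the values below was not tested. The windows come from RefSeq on GRCm38.p6, span 300 bases around an annotated start, and were found for 8 of the 10 members, in 11 windows. Per2 and Bhlhe40 had none, so the Per genes cannot be compared in full. Capitals mark the E-box CACGTG, the D-box TTATGTAA and the ROR core site AGGTCA, each on either strand, so that a core site on the other strand reads TGACCT. No 2 of the marked matches overlapped. Per1 has 2 windows. The first, chr11:69098699-69098998 on the plus strand, holds 1 E-box and 1 core site on the other strand, and the second holds no marked match. The window of Per3, chr4:151044616-151044915 on the minus strand, holds 2 D-boxes. The first Per1 window and that of Per3 read as follows.
Per1: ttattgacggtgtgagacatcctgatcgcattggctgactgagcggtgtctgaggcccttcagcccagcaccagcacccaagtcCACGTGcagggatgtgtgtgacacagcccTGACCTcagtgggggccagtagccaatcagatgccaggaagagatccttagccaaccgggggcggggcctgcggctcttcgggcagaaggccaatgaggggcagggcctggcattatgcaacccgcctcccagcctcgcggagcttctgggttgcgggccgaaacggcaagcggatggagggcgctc
Per3: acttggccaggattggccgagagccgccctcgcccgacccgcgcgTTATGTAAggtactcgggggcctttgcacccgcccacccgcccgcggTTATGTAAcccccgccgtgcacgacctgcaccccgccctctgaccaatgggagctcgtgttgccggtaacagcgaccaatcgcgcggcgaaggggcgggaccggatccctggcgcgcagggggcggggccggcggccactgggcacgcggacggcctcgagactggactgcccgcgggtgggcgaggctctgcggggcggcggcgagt
The E-boxes of Cry1 (chr10:85185097-85185126, minus strand) and of both starts of Tef (chr15:81802534-81802563 and chr15:81811264-81811293, plus strand), and the core site of the second start of Arntl (chr7:113207530-113207559, plus strand), lie in these stretches of 30 bases.
Cry1: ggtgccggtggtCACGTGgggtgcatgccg
Tef window 1: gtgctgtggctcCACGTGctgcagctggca
Tef window 2: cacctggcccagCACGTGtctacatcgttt
Arntl window 2: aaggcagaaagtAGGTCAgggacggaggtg
An E-box was present in 4 of the 11 windows, from 3 genes, against 7.15% of all 32851 windows in the table. A D-box was present in 1 window against 0.938% of all windows, and a ROR core site in 3 against 16.3%. The cAMP response element TGACGTCA was found in 0 of the 11 windows and in 1.79% of all of them. A match is a run of letters, not a shown binding site.

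**Figure D1:**
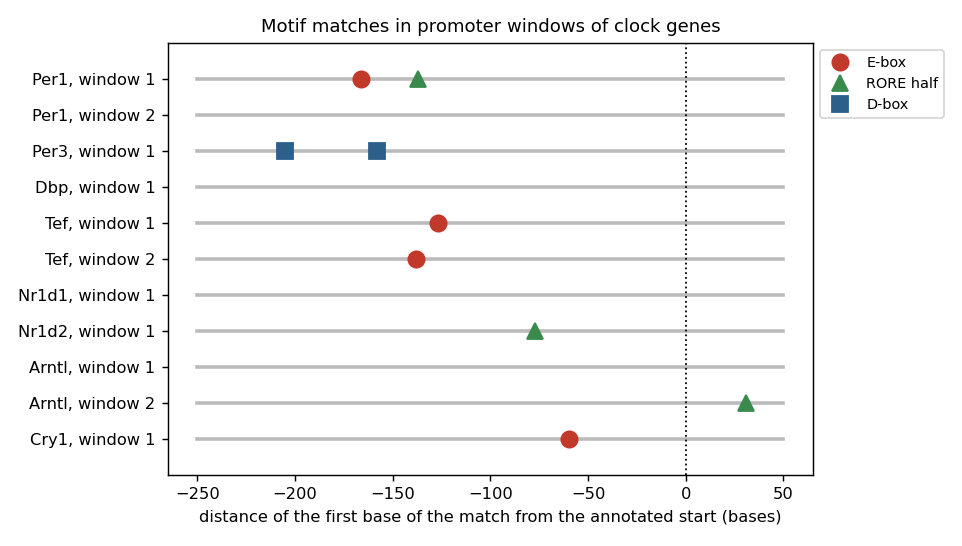
Motif matches in the 11 promoter windows of the clock genes, plotted by distance in bases from the annotated start (dotted line). Circles are E-boxes, squares D-boxes and triangles ROR core sites. Per3 carries 2 D-boxes, which begin 205 and 158 bases before the start, and the E-box of Per1 begins 166 bases before it.

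All values below are RMA log2 values as deposited, a relative scale on which 1 unit is a doubling and on which different probe sets cannot be ranked by amount. Array medians lay between 5.19 and 5.21. Each fold change sets knockout over wild type. Limma called a gene changed at a Benjamini-Hochberg adjusted p under 0.05 over all genes, which 1 of 17097 genes reached (0.00585%), and that gene was no clock gene. The tissue label was checked on markers: the luminal keratin gene Krt8 had 9.07 and 9.01 in knockouts and 9.47 and 9.27 in wild type, and Adipoq of adipocytes lay between 13.14 and 13.26, so gland epithelium and fat were both present. The arrays also differed in hair follicle markers. Of 17 hair follicle and epidermis markers 15 were measured. The log2 of their summed level was 12.74 and 9.49 in knockouts 1 and 2. In wild type 1 and 2 it was 9.68 and 12.57. The follicle genes Tchh and Krt25 had ranges of 7.25 and 6.78 over the 4 arrays. Knockout 1 and wild type 2 were thus rich in hair follicle RNA, and the remaining arrays poor. The epidermis gene Krt10 had a range of only 0.058. Krt1, Lor and Flg, also of the epidermis and low on the scale, had ranges of 0.13, 0.25 and 0.069. The summed level therefore does not show a difference in epidermis.

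Among the 9 measured clock genes 0 passed the threshold, and adjusted p ran from 0.693 to 0.997. At an unadjusted p under 0.05 there was 1 higher member, Per1, and 0 lower, against 7.01% of all genes (3.63% higher and 3.38% lower). The groups did not overlap in 1 of 9 members, again Per1, while over all genes they did not overlap in 37.6%. The median log2 fold change of the members was -0.012, against -0.0022 over all genes, and the median of its size was 0.077 against 0.070. The median range over the 4 arrays was 0.27 for the members against 0.19 over all genes. With the brightest probe set of each gene, the largest difference between genotypes was in Per1. The gap between the groups was 0.23 for Per1, and 0.32 and 0.27 for 2 other probe sets of Per3. With 2 arrays a genotype, a lack of calls does not show that the genotypes were alike. Over the 17 probe sets, 1 was higher and 2 were lower at an unadjusted p under 0.05, where all named probe sets gave 6.82% (3.66% higher and 3.16% lower). The groups did not overlap in 1 higher and 4 lower of the 17 (29.4%), against 37% of all named probe sets (18.3% higher and 18.7% lower). Several of the 17 read the same gene, so the difference between these shares is not read as a result. In 8 of the 9 members the arrays of at least 1 genotype differed by more than the genotypes did. The share over all genes was not counted, so this is not read as a trait of the clock genes.

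**Figure D2:**
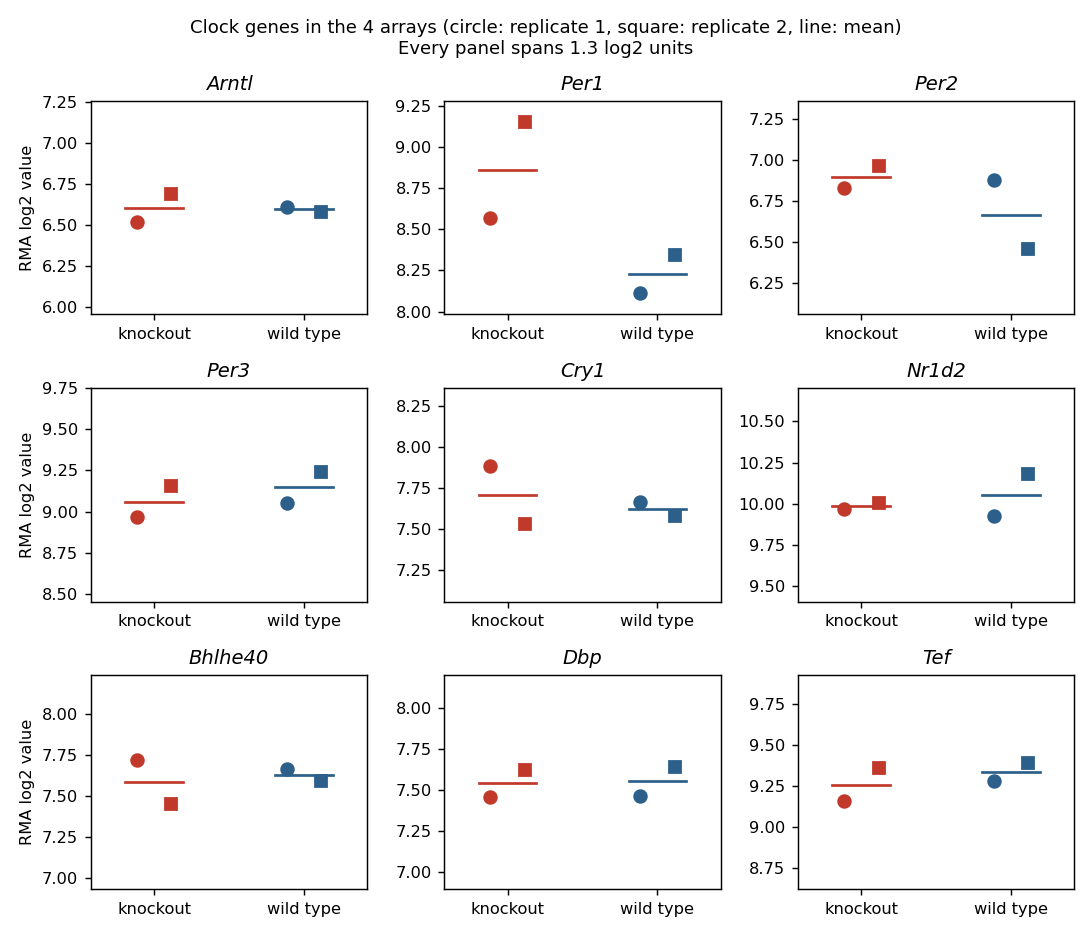
RMA log2 values of the 9 measured clock genes, 1 probe set a gene, in knockout (left, red) and wild-type (right, blue) arrays. Circles are replicate 1, squares replicate 2 and lines the means. All panels span the same number of log2 units. Per1 is the only gene of the 9 whose genotypes do not overlap.

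The Period genes gave different patterns over the arrays. Per1, a repressor that glucocorticoids and cAMP can also induce, had 8.57 and 9.15 in knockouts 1 and 2 and 8.11 and 8.34 in wild type 1 and 2. Both knockout arrays lay above both wild-type arrays, with knockout 2 the highest and wild type 1 the lowest. The log2 fold change was 0.64 (SE 0.21, 95% interval 0.099 to 1.17, n = 2 arrays each), or 1.55-fold, and did not pass (limma adjusted p = 0.693). Between the extreme arrays Per1 spanned 2.06-fold, a range wider than that of 98.9% of genes. Knockout 2 carried much of the difference: without it the log2 fold change was 0.35, and without knockout 1 it was 0.93. Between the 2 arrays rich in hair follicle RNA, knockout 1 and wild type 2, Per1 differed by 0.23, and between the 2 poor ones, knockout 2 and wild type 1, by 1.04.

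Per2, the Period protein without which rhythms are soon lost in mice, had 6.83 and 6.96 in knockouts and 6.88 and 6.46 in wild type. Wild type 2 alone was low, and wild type 1 lay between the knockouts, so the groups overlapped. The log2 fold change was 0.23 (SE 0.15, 95% interval -0.17 to 0.62, limma adjusted p = 0.795). It was 0.018 without wild type 2 and 0.44 without wild type 1. A second, dim probe set of Per2 had 4.49 and 4.55 in knockouts and 4.48 and 4.58 in wild type, a difference of -0.014.

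Per3, the Period gene least needed for rhythm in mice, was read by 5 probe sets that did not give 1 answer. The brightest, 1421087_PM_at, had 8.97 and 9.16 in knockouts and 9.05 and 9.24 in wild type, which interleave. Its log2 fold change was -0.085 (SE 0.10, 95% interval -0.36 to 0.19, limma adjusted p = 0.900). The probe set 1441445_PM_at had 7.41 and 7.53 in knockouts and 7.84 and 8.10 in wild type. A further probe set, 1442243_PM_at, had 7.58 and 7.61 in knockouts and 7.88 and 8.19 in wild type. In both of these the knockout arrays lay below the wild-type arrays, with wild type 2 the highest. Tested over all 28898 probe sets, their log2 fold changes were -0.51 (SE 0.11) and -0.44 (SE 0.12), and neither passed (limma adjusted p = 0.706 for both, where 0.00692% of probe sets passed). For 1441445_PM_at the difference was -0.69 between the arrays rich in hair follicle RNA and -0.32 between the poor ones. The 2 dim probe sets differed by -0.0072 and -0.066. The annotation ties the brightest and the dim probe sets, 3 in all, to 1 Per3 transcript record, and the 2 lower ones to other records.

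With the mean of its 5 probe sets in place of the brightest, the log2 fold change of Per3 was -0.22. Which Per3 RNA each probe set reads was not tested.

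**Figure D3:**
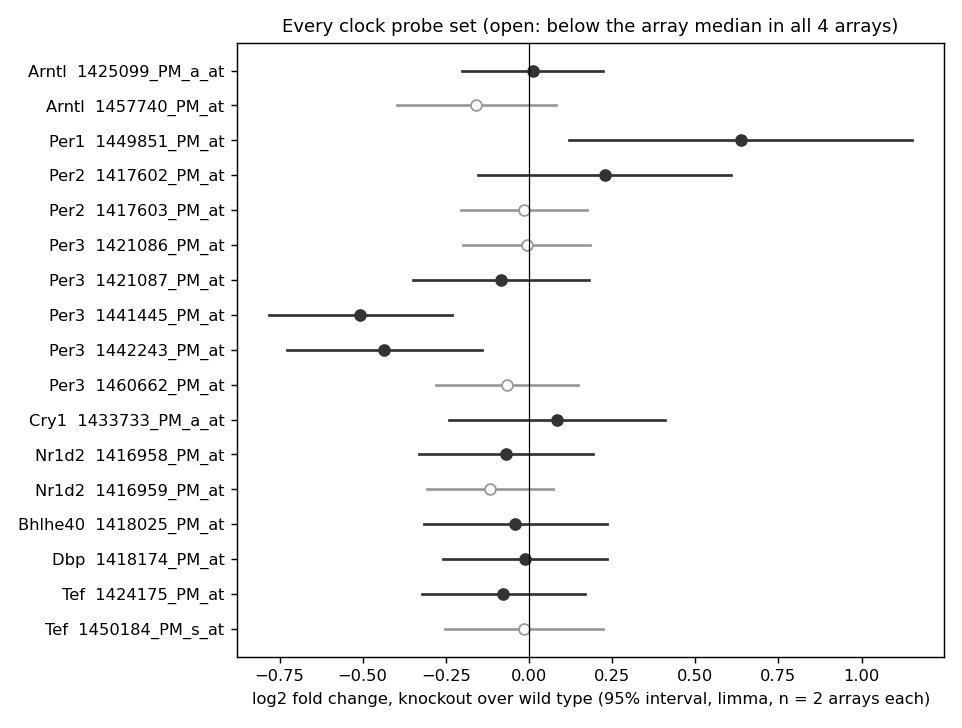
Log2 fold change, knockout over wild type, of all 17 clock probe sets with 95% intervals from limma (n = 2 arrays each). Open grey points are the 6 probe sets below the array median of named probe sets in all 4 arrays. The interval leaves out 0 for Per1 (above) and for 2 of the 5 probe sets of Per3 (below), before any adjustment for multiple tests.

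The groups of the other repressors overlapped. Cry1, the cryptochrome that closes the loop with the Period proteins, had 7.88 and 7.53 in knockouts and 7.67 and 7.58 in wild type, so the knockouts lay on either side of wild type. Its log2 fold change was 0.084 (SE 0.13, limma adjusted p = 0.933). Bhlhe40, also called Dec1, competes for E-boxes and had 7.72 and 7.45 in knockouts and 7.66 and 7.59 in wild type, a difference of -0.041 (SE 0.11, adjusted p = 0.973). Cry1 and Bhlhe40 shared the order of arrays, with knockout 1 the highest and knockout 2 the lowest. Nr1d2, or Rev-erb beta, the heme-binding nuclear receptor that represses Arntl, had 9.97 and 10.00 in knockouts and 9.92 and 10.18 in wild type. Its knockouts lay between the wild-type arrays, and the log2 fold change was -0.068 (SE 0.10, adjusted p = 0.931). A dim second probe set of Nr1d2 had 3.74 and 3.79 in knockouts and 3.83 and 3.94 in wild type, a difference of -0.12 without overlap (adjusted p = 0.802 over all probe sets).

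The brighter of 2 probe sets of Arntl, of the positive limb, showed overlapping groups. Mice without it lose their rhythms. Arntl had 6.52 and 6.69 in knockouts and 6.61 and 6.58 in wild type, so both wild-type arrays lay between the knockouts. The log2 fold change was 0.011 (SE 0.083, 95% interval -0.20 to 0.23, limma adjusted p = 0.996). Its dim second probe set had 5.37 and 5.14 in knockouts and 5.42 and 5.41 in wild type, a difference of -0.16 (adjusted p = 0.793 over all probe sets). There both knockouts lay below both wild-type arrays, with knockout 2 the lowest.

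The groups of the outputs Dbp and Tef overlapped as well. Dbp, a direct E-box target of the positive limb, had 7.46 and 7.62 in knockouts and 7.46 and 7.64 in wild type. Each genotype held 1 lower and 1 higher array, and the log2 fold change was -0.012 (SE 0.098, 95% interval -0.26 to 0.24, limma adjusted p = 0.997). Tef had 9.16 and 9.36 in knockouts and 9.28 and 9.39 in wild type, a difference of -0.077 (SE 0.097, adjusted p = 0.905). The second probe set of Tef, which was dim, differed by -0.015. In Dbp, Tef and the brightest Per3 probe set wild type 2 was the highest array and knockout 1 the lowest. The hair follicle signal was high in both of those arrays. For Dbp, knockout 1 and wild type 1 nearly tied, at 7.457 and 7.464. What set this order was not tested.

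Leaving out Per1 and Per2, and taking only the brightest probe set of each gene, the 95% intervals of the other 7 members ran at most from -0.36 to 0.42, that is, to 1.28-fold lower and 1.34-fold higher. The range of those probe sets over the 4 arrays was 0.17 to 0.35, up to 1.27-fold, against a median of 0.19 over all genes. Other probe sets of the same genes went beyond this: the interval reached -0.78 for 1441445_PM_at and -0.73 for 1442243_PM_at of Per3, with ranges of 0.69 and 0.60, and -0.40 for the dim probe set of Arntl.

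The positions of the limbs were then compared by array, and the outcome depended on the probe sets taken. With the brightest probe set for each gene, its mean over the 4 arrays was subtracted, and the deviations of the 8 measured repressors and outputs were averaged, as were those of Arntl, Clock and Npas2. The repressors and outputs averaged -0.0017 and 0.085 in knockouts 1 and 2 and -0.065 and -0.018 in wild type 1 and 2. Per1 weighed heavily on these averages: its own deviations were 0.027 and 0.61 in knockouts and -0.43 and -0.20 in wild type. They are therefore no shared trait of the set, and the set without Per1 was not averaged. The positive limb averaged -0.027 and 0.075 in knockouts and -0.00061 and -0.048 in wild type. Knockout 2 was the highest array in both sets. The first set minus the second gave 0.025 and 0.0094 in knockouts and -0.065 and 0.030 in wild type, a genotype difference of 0.035 that was smaller than the spread between replicates (pooled SD 0.048). With the mean of all probe sets of a gene, the repressors and outputs averaged -0.0056 and 0.058 in knockouts and -0.063 and 0.011 in wild type, while the positive limb averaged -0.047 and -0.022 in knockouts and 0.023 and 0.046 in wild type. The positive limb was then lower in both knockouts than in both wild-type arrays, but its genes did not move alike. In that setting the log2 fold change was 0.075 for Clock and -0.074 for Arntl. The probe sets of Npas2, low on the scale, gave -0.059 and -0.36, so the lower average came mainly from Npas2. Per1, with 1 probe set, entered the first set with the same deviations as above. The first set minus the second became 0.042 and 0.080 in knockouts and -0.086 and -0.035 in wild type, a genotype difference of 0.121 without overlap and beyond the pooled SD above. No p is given for these averages, because their genes were chosen.

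Pairs of genes that peak apart in adult tissues were compared with the brightest probe sets. The deviation of Arntl minus that of Dbp was 0.0073 and 0.015 in knockouts and 0.090 and -0.11 in wild type. With Nr1d2 in place of the unmeasured Nr1d1, Arntl minus Nr1d2 was -0.027 and 0.11 in knockouts and 0.10 and -0.18 in wild type. In both pairs the wild-type arrays spread more widely than the knockouts, with wild type 1 on the side of Arntl and wild type 2 on the side of the repressor or output. The knockouts lay within the wild-type spread, except that knockout 2 lay just above wild type 1 for Nr1d2. The pairs also depended on the probe sets taken. With the mean of probe sets, Arntl minus Dbp was 0.063 and -0.13 in knockouts and 0.13 and -0.065 in wild type. Knockout 2 was then the lowest array, and the genotype difference turned from 0.023 to -0.062. Arntl minus Nr1d2 was then 0.043 and -0.025 in knockouts and 0.094 and -0.11 in wild type.

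**Figure D4:**
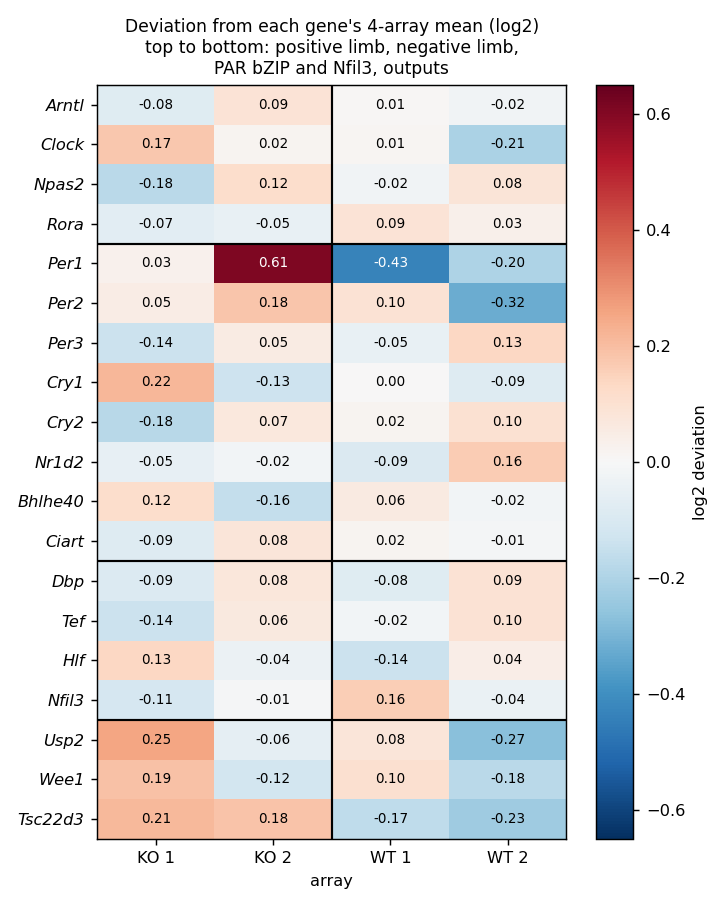
Deviation of clock genes from their own 4-array mean on the log2 scale, for knockout (KO 1, KO 2) and wild-type (WT 1, WT 2) arrays. Lines separate the positive limb, the negative limb, the PAR bZIP factors with Nfil3, and outputs. Per1 and Tsc22d3 are higher in both knockouts than in both wild-type arrays, and Dbp and Tef do not separate by genotype.

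The rest of the clock pathway was read from lists of 30 further genes, of which 26 were measured: 0 passed over all genes, 16 were above and 10 below 0, and the median log2 fold change was 0.058. The groups did not overlap in 8 of the 26, 6 higher and 2 lower, which is 30.8% against 37.6% over all genes. At an unadjusted p under 0.05 there was 1, Tsc22d3, also called Gilz, a leucine zipper gene induced by glucocorticoids that cycles in many adult tissues. Tsc22d3 had 9.38 and 9.35 in knockouts and 8.998 and 8.93 in wild type, a difference of 0.40 (SE 0.066, 95% interval 0.23 to 0.57, limma adjusted p = 0.651). Its other probe sets had 0.40 and 0.25, with no overlap in either, so all 3 lay higher in knockouts.

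Clock, the partner of Arntl, had 8.66 and 8.50 in knockouts and 8.49 and 8.28 in wild type (log2 fold change 0.19, SE 0.10, limma adjusted p = 0.761). The gap between its knockout 2 and wild type 1 was small, and its other probe sets gave 0.11, 0.034 and -0.044. Rora, the activator at ROR elements, had 6.52 and 6.54 in knockouts and 6.68 and 6.62 in wild type (-0.12, SE 0.065, limma adjusted p = 0.764). The other probe sets of Rora gave -0.20, -0.00081, 0.018 and -0.0052, all with overlapping groups. Arntl2, a paralog of Arntl, had a log2 fold change of 0.089, and the cryptochrome Cry2 had -0.11, both with overlapping groups. The 2 probe sets of Npas2, chosen after their values were seen, disagreed in size. The one used for the gene had 4.99 and 5.29 in knockouts and 5.15 and 5.25 in wild type. The other had 4.86 and 4.80 in knockouts and 5.13 and 5.25 in wild type, a difference of -0.36 that did not pass (adjusted p = 0.706 over all probe sets). Both lay low on the scale of the arrays.

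Among D-box factors, Nfil3 had 6.54 and 6.64 in knockouts and 6.81 and 6.61 in wild type (-0.12), and Hlf had 6.88 and 6.71 in knockouts and 6.61 and 6.79 in wild type (0.096). Their groups overlapped, as did those of Dbp and Tef. Of the proteins that modify the clock, the deubiquitinase gene Usp2 had 7.83 and 7.52 in knockouts and 7.65 and 7.30 in wild type (0.20, SE 0.16, limma adjusted p = 0.834). Replicate 1 was the higher array of Usp2 in both genotypes. Timeless, which acts in replication forks in mammals, gave -0.17 (SE 0.10), and the phosphatase subunit gene Ppp1cb had 0.093. Of the outputs, Tns2, a focal adhesion protein, had 0.17 (SE 0.079), and Tspan4, a tetraspanin, 0.17 (SE 0.078), both without overlap and both short of the threshold (adjusted p = 0.736 for each).

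Genes with the array profile most like that of Per1 were found among all genes by the distance between deviations over the 4 arrays. The 4 closest were Rbmxl2, an RNA-binding protein gene, at 0.063, Dusp1, a phosphatase of MAP kinases, at 0.073, Sik1, a salt-inducible kinase, at 0.12, and Egr1, a zinc finger transcription factor, at 0.13. A gene with no variation would lie at 0.78. Dusp1 had 9.69 and 10.27 in knockouts and 9.23 and 9.38 in wild type, and Egr1 had 9.43 and 9.92 in knockouts and 8.81 and 9.06 in wild type. Sik1 had 6.48 and 6.93 in knockouts and 6.05 and 6.21 in wild type. Like Per1 these genes were highest in knockout 2 and lowest in wild type 1, which follows from picking them by closeness to Per1. Rbmxl2 lay lower on the scale than these, with 4.95 and 5.46 in knockouts and 4.44 and 4.64 in wild type. Around Dbp the 4 closest genes were Tmem262, Pdzd2, Med12 and Ttyh1, at 0.0079 to 0.014, and around Arntl they were Mapk15, Scfd2, Meak7 and Cmip, at 0.0095 to 0.011. A flat gene would lie at 0.17 from Dbp and 0.12 from Arntl, so these likenesses are between profiles with little variation.

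**Figure D5:**
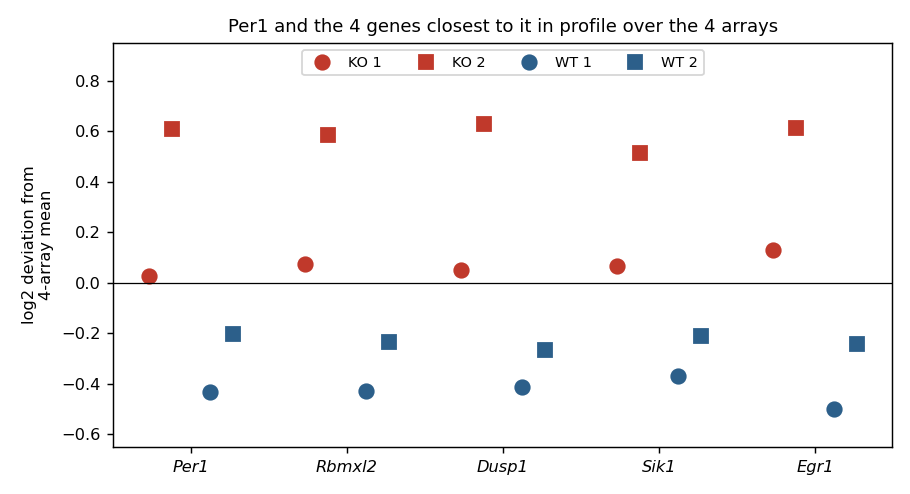
Log2 deviation from the 4-array mean for Per1 and the 4 genes closest to it, in knockout (red) and wild-type (blue) arrays, circles for replicate 1 and squares for replicate 2. In all 5 genes the order from high to low is knockout 2, knockout 1, wild type 2, wild type 1. The 4 genes were picked by closeness to Per1, so the shared order is no separate result.

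The summed levels of marker lists are given beside Per1. Of 15 immediate early genes 14 were measured, and the log2 of their summed level was 11.79 and 12.16 in knockouts and 11.47 and 11.62 in wild type. The groups did not overlap in 7 members that were higher and 1 that was lower, against 18.2% and 19.4% of all genes. Of 12 glucocorticoid-responsive genes 11 were measured, with a summed level of 13.67 and 13.78 in knockouts and 13.37 and 13.67 in wild type. In that list Pdk4, a kinase that restrains glucose oxidation, had 11.59 and 11.70 in knockouts and 10.80 and 11.35 in wild type (0.57, SE 0.19, limma adjusted p = 0.693), and Cdkn1a, a cell cycle inhibitor, gave 0.33 (SE 0.14, adjusted p = 0.729). All 15 skeletal muscle markers were measured, with a summed level of 8.41 and 9.36 in knockouts and 8.62 and 8.49 in wild type. Knockout 2 was the highest array for muscle, as it was for Per1. It was also the highest for the immediate early, glucocorticoid-responsive, white adipocyte and endothelial lists. Knockout 1 was the lowest array for muscle, which it was not for Per1. For brown and beige fat, 9 of 10 markers were measured, with a summed level of 13.87 and 13.46 in knockouts and 12.97 and 12.91 in wild type. There knockout 1, not knockout 2, was the highest. For white adipocytes, with 8 of 10 markers measured, the sums were 15.39 and 15.49 in knockouts and 15.46 and 15.41 in wild type, and for endothelium, with 8 of 8, they were 12.27 and 12.47 in knockouts and 12.28 and 12.20 in wild type. Luminal markers, 10 of 11, summed to 11.68 and 11.62 in knockouts and 11.96 and 11.83 in wild type, basal markers, 8 of 8, to 12.45 and 12.45 in knockouts and 12.58 and 12.50 in wild type, and macrophage markers, 10 of 10, to 12.58 and 12.68 in knockouts and 12.78 and 12.72 in wild type. No marker is at 0 on the RMA scale. The part of these lists in the value of Per1 was not tested, and in whole tissue a change in the number of cells of a type and a change of RNA per cell cannot be told apart.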

How the data were processed

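Biotin-labelled total RNA was hybridized to Affymetrix 3' IVT arrays, per the labels. The authors deposited log2 values for each probe set. The submitters' processing notes name affy and RMA, and no versions were found there. RMA forces the arrays onto a common distribution, which hides a shift of most genes, and it compresses changes of dim genes. The number of arrays limits the precision: over all genes the SE had a median of 0.080, and the 95% interval a median reach of 0.206 to either side. Replicates are as labelled, so p-values measure the spread between these arrays.

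Of 45141 probe sets, 104 were array controls, 551 had several gene symbols and 15588 were not listed in the annotation; all of these were left out. Gene IDs were matched to RefSeq of GRCm38.p6 (99.3% matched, 0 symbols changed). The probe set with the highest mean stood for a gene. The genotypes were compared in limma 3.58.1 (R 4.3.3) by lmFit and eBayes, two-sided, with 2 residual and 2.96 prior degrees of freedom and Benjamini-Hochberg adjustment, and the steps were tested on simulated data. Mmp15 itself was not analysed here, and the labels' genotypes therefore rest on the submitters. With 2 against 2 arrays the smallest exact permutation p is 0.333.

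The members, lists and alternatives were chosen with earlier results of these data known. Named genes were the members, the 3 genes of smallest p in each clock-related and glucocorticoid list and any under an unadjusted 0.05, and the 4 genes nearest in profile to Dbp, Per1 and Arntl, without predicted genes and clones. A planned contrast of Arntl with Nr1d1 was replaced by Nr1d2. Alternatives were quantile normalization, median centring, brighter genes only, the mean of probe sets, a trend or robust variances in eBayes, every probe set tested, the replicate number as a block, and each array left out.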

Additional observations from a re-analysis of the deposited data

How the results depend on the processing

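The count of clock members past the threshold was 0 under every alternative run. The count over all genes, 1, was 0 with the mean of probe sets (1185 genes at an unadjusted p under 0.05) and 0 in a fit that took replicate numbers as a block (1185 unadjusted). It was 2 with robust variances or with every probe set tested. With 1 array left out, 1 genotype has a single array, so the count over all genes is not given. Same-numbered arrays deviated in opposite directions (correlation of deviations -0.480 across genes), so the numbers were not taken as pairs; a crossed pairing, added after the data were seen, called 0 genes (1064 unadjusted). Per1 was above 0 in all 13 alternatives, from 0.35 to 0.93, but most of them could not have reversed it. The subset of brighter genes, the variance settings, the blocks and the test of every probe set leave each log2 fold change as it was. The mean of probe sets cannot change a gene with 1 probe set, such as Per1. Because both knockouts lay above both wild-type arrays, leaving out 1 array could not reverse Per1 either. The limb contrast, 0.035 and within the replicate SD of 0.048, was 0.121 with the mean of probe sets, where it exceeded that SD and the genotypes no longer overlapped, and ran from -0.013 to 0.082 with 1 array left out. Of 117 member values under alternatives 106 kept their direction and 11 reversed. The 106 include the settings that leave a log2 fold change as it was, so the count is no measure of stability. With the mean of probe sets Arntl was -0.074. With 1 array left out, Per3 ran from -0.18 to 0.011, Dbp from -0.098 to 0.074, Tef from -0.18 to 0.025, Nr1d2 from -0.20 to 0.061, Arntl from -0.074 to 0.096, Cry1 from -0.090 to 0.26 and Bhlhe40 from -0.18 to 0.095. Among other named genes 23 of 330 values reversed, and the 330 also include settings that could not reverse a value. With the mean of probe sets Pdzd2 was 0.036 and Ttyh1 0.041, with quantile normalization Ttyh1 was 0.0059 and Meak7 -0.0034, and with median centring Scfd2 was -0.0070 and Meak7 -0.0038. With 1 array left out, Arntl2 ran from -0.013 to 0.19, Cry2 from -0.24 to 0.011, Tmem262 from -0.099 to 0.071, Pdzd2 from -0.10 to 0.064, Med12 from -0.10 to 0.063, Ttyh1 from -0.082 to 0.082, Mapk15 from -0.066 to 0.092, Scfd2 from -0.082 to 0.086, Meak7 from -0.074 to 0.084 and Cmip from -0.065 to 0.11. The cause of these reversals was not tested.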

Other observations

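Of the 11 measured glucocorticoid-responsive genes, 7 were above and 4 below 0. Among members chosen after their values were seen, Ddit4, an inhibitor of mTOR signalling, had log2 values of 8.32 and 8.91 in knockouts and 7.80 and 8.30 in wild type, while Zbtb16, a zinc finger repressor, had 7.68 and 7.98 in knockouts and 7.98 and 8.30 in wild type. Fkbp5, a chaperone of the glucocorticoid receptor, had 6.64 and 6.56 in knockouts and 7.07 and 6.57 in wild type, with wild type 1 alone high. The limma adjusted p was 0.735 for Ddit4, 0.745 for Zbtb16 and 0.820 for Fkbp5, so none of the 3 passed.

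Wee1, a kinase gene that brakes mitosis and carries E-boxes, was also chosen after its values were seen. It had 7.98 and 7.67 in knockouts and 7.89 and 7.61 in wild type (log2 fold change 0.072, SE 0.15), with replicate 1 the higher array in both genotypes, as in Usp2.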
